A study of Caenorhabditis elegans with 2 samples.

Results

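A set of 937 strong SNPC-4 peaks of replicate 2, of the 1781 strongest in that replicate (52.6%), had no counterpart among the 1781 strongest peaks of replicate 1. They were chosen by measured values: the relaxed peak list of each replicate on the ce11 genome build was ranked by the authors' signal value and cut to the length of the optimal list, and a replicate 2 peak was kept when no replicate 1 summit of the cut list lay within 200 bp. The other 844 replicate 2 peaks are called shared, and 921 replicate 1 peaks had no replicate 2 summit within the same distance. The signal, the rank and the absence from the replicate 1 cut list are therefore descriptions of the choice and not findings.

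The peaks come from chromatin immunoprecipitation and sequencing (ChIP-seq) of eGFP-tagged SNPC-4 in whole young adult Caenorhabditis elegans. Per the labels, both libraries came from strain OP179, in which the integrated insertion wgIs179 carries the tagged snpc-4 in worms with the unc-119(ed3) III allele, with males and females pooled and library fragments of 150 to 350 bp. The design held 1 group of 2 biological replicates and no treatment or second genotype, so peaks were compared between replicates and no test between conditions was possible. Whole animals mix all tissues, so binding in few cells and weak binding in many cells cannot be told apart.

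SNPC-4 is a DNA-binding component of SNAPc, the complex that activates small nuclear RNA genes. In animals SNAPc binds a proximal sequence element upstream of small nuclear RNA (snRNA) genes and recruits RNA polymerase II or III, and in nematodes it also serves spliced leader (SL) RNA genes. In C. elegans germ cells SNPC-4 binds the large clusters of 21U-RNA genes on chromosome IV, which encode the Piwi-interacting RNAs of this species.

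Windows of 121 bp centred on 6 of the 937 summits show the kinds of sequence beneath them (assembly WBcel235, the same as ce11). They are strong peaks, away from annotated untranslated regions, chosen to show each kind: 3 with one of the short motifs described below near the summit, one beside a pair of tRNA genes, one among 21U-RNA genes, and the strongest peak of the set. Capitals mark AGACGCAG, AAACGCGC, the tRNA B box core GGTTCGA or the 21U-RNA upstream core CTGTTTCA on either strand; the smy-1 window held none of them.
Intergenic peak with no 5' end nearby, chrIII:8412159-8412279, plus strand: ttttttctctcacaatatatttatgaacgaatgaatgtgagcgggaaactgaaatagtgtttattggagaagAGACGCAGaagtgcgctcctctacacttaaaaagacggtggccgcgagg
C27C12.4 and C27C12.1, chrX:14853946-14854066, plus strand: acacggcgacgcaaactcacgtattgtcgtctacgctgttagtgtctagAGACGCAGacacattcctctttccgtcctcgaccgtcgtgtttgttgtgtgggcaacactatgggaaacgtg
F13A7.14, chrV:16401651-16401771, plus strand: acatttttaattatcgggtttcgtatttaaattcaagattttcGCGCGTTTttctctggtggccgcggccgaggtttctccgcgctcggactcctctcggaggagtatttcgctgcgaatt
T23F1.t1 and T23F1.t2, chrV:15465131-15465251, plus strand: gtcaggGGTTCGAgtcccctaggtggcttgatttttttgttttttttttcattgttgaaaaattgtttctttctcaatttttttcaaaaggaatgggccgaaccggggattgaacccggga
21ur-5995 and neighbouring 21U-RNA genes, chrIV:16564296-16564416, plus strand: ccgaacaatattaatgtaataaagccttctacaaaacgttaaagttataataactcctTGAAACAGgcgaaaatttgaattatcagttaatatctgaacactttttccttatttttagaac
smy-1, chrIV:9511872-9511992, plus strand: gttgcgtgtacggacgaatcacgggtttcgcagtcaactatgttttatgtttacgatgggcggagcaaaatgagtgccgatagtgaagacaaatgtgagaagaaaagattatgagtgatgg

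Close views of the motif matches, read on the strand of the motif, come from strong peaks beside named genes that are not shown above. The first 4 lines show AGACGCAG and the next 4 show AAACGCGC, in capitals, with 8 bases to each side.
Y39B6A.43, chrV:18967845-18967868, minus strand: acccgtggAGACGCAGagaaagtg
npp-3 and top-2, chrII:11874796-11874819, plus strand: tccgtaagAGACGCAGacacaaaa
C18B2.4, chrX:3605939-3605962, minus strand: cttgtgagAGACGCAGaaaacaag
vha-15, chrX:2237604-2237627, plus strand: gctagtagAGACGCAGatagaaaa
mrpl-55, chrIV:443859-443882, plus strand: agcgccgcAAACGCGCtccgctga
apb-1, chrIII:2597300-2597323, minus strand: aaatccaaAAACGCGCaaaggctc
manf-1, chrIV:2928631-2928654, minus strand: acatcgagAAACGCGCcaaggaga
R08D7.4 and eif-3.D, chrIII:8971813-8971836, plus strand: ggtacacgAAACGCGCcaacattc
The peak of C18B2.4 held both motifs.

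Peaks found only in replicate 2 came from the middle and the end of the cut list. None of the 200 strongest replicate 2 peaks belonged to the set. The rule used these ranks, so the shares by rank describe the choice. The share was 10.5% at ranks 201 to 400, 34% at ranks 401 to 600 and 62.5% at ranks 601 to 800. It lay between 69.5% and 76.5% in the remaining rank bands. Replicate 2 signal ran from 20.7 to 66.3 with a median of 25.3, against 20.7 to 1174 with a median of 40.4 for the shared peaks. The weakest of the 937 peaks stood at ranks 1777, 1778 and 1781 with signals of 20.667, 20.663 and 20.653. The first unmatched peak below the cut, beside mes-2, which encodes a histone H3 lysine methyltransferase of the Polycomb complex, stood at rank 1782 with 20.651. At the distance threshold, the nearest excluded matches were 201 bp away beside 21ur-30, 205 bp beside 21ur-13940 and 207 bp beside atfs-1, a regulator of the mitochondrial unfolded protein response. The farthest accepted matches, among the shared peaks, were 200 bp away beside 21ur-12422, 194 bp beside 21ur-15015 and 193 bp beside both 21ur-9658 and sec-61.A, a subunit of the protein translocation channel.

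**Figure D1:**
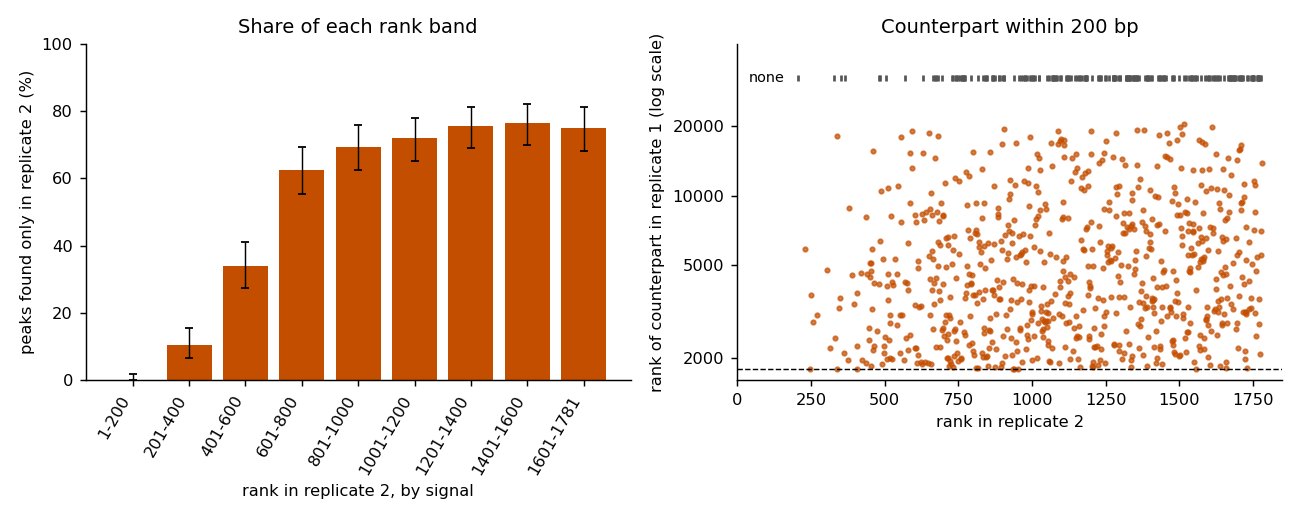
Left, share of replicate 2 peaks found only in that replicate (%) in bands of 200 ranks by signal, with 95% Clopper-Pearson intervals, which cover counting only. The share was 0 in the first band and 75.1% in the last. Right, rank of each of the 937 peaks in replicate 2 against the rank of its counterpart within 200 bp in the full replicate 1 list (log scale); the dashed line is the cut at rank 1781, and the ticks marked none are the 186 peaks with no counterpart.

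Most of these peaks were present in replicate 1 at lower rank. Of the 937, 751 (80.1%, 95% interval 77.4 to 82.7) had a summit within 200 bp somewhere in the full replicate 1 list of 20730 peaks. The same held for 27.7% of the 28219 replicate 2 peaks below the cut, and for 68.7% of the 1781 peaks just below it. The counterparts ranked from 1782 to 20331 in replicate 1, with a median of 4293 and quartiles of 2703.5 and 7564.5. Ranks 1782 to 2500 held 159 of them, ranks 2501 to 5000 held 264, ranks 5001 to 10000 held 211 and lower ranks held 117. Their replicate 1 signal had a median of 8.1, against a cut of 13.3 in that replicate, with a range of 2.06 to 13.3. The 5 counterparts nearest to the cut stood beside the protein-coding gene Y17G9B.4 (rank 1782), the tRNA gene C06G1.t1 (1783), K10D2.5 (1785), a place on chromosome II with no annotated 5' end nearby (1786) and rps-23 (1790), which encodes a protein of the small ribosomal subunit.

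The remaining 186 peaks (19.9%, interval 17.3 to 22.6) had no replicate 1 summit within 200 bp at any rank. Many still had one close by: 105 of the 186 had a replicate 1 summit 201 to 500 bp away, and 71 overlapped a replicate 1 peak interval. Neither an overlap nor a summit within 1000 bp was found for 51 of them. Against the replicate 1 cut list alone, 34 of the 937 had a summit 201 to 500 bp away and 19 overlapped a peak.

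The authors' optimal and pooled lists were made from the reads of both replicates, so they are not independent of either replicate list. An optimal summit lay within 200 bp of 546 of the 937 peaks (58.3%, interval 55 to 61.5), against 832 of the 844 shared peaks (98.6%) and 288 of the 921 found only in replicate 1 (31.3%). The share in the optimal list was 89.9% for counterparts at replicate 1 ranks 1782 to 2500, 75% at 2501 to 5000, 58.3% at 5001 to 10000, 34.2% at lower ranks and 22.6% for peaks with no counterpart. Replicate 2 signal moved with these bands (medians of 27.3 in the first and 24.1 with no counterpart), and its part in the shares was not tested. The pooled relaxed list held a summit near 916 of the 937.

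The strongest peak of the set had its summit at -93 bp from the 5' end of smy-1 (negative values are upstream), which encodes an SmY RNA, a nematode small nuclear RNA associated with trans-splicing. Its summit at position 9511932 of chromosome IV had a signal of 66.3 at rank 208 in replicate 2. It had no replicate 1 summit within 200 bp, but one of the replicate 1 cut list lay 218 bp away, so its place in the set rests on the distance threshold. Its window is shown above.

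Protein-coding promoters made up most of the other strong peaks. C37A2.8 had a signal of 63.1 at rank 231 in replicate 2, against 6.52 at rank 5881 in replicate 1, with the summit at -55 bp from its 5' end. K10D2.5 had 59.9 at rank 246 in replicate 2, against 13.3 at rank 1785 in replicate 1. The promoter of rpb-11, a subunit of RNA polymerase II, had 59.2 at rank 252 in replicate 2, against 8.86 at rank 3728 in replicate 1. Signals are on each replicate's own scale, so the ranks carry the comparison: these 3 promoters stood at 231 to 252 in replicate 2, and their replicate 1 ranks spanned 1785 to 5881. memb-1, which encodes a Golgi SNARE protein, had the lowest replicate 1 rank among the 20 strongest peaks with a counterpart, at rank 338 with a signal of 49.2 in replicate 2, against rank 18025 with 2.41 in replicate 1. At snrp-40.1, a component of the U5 small nuclear ribonucleoprotein, the signal was 48.7 at rank 344 in replicate 2, against 9.55 at rank 3267 in replicate 1. At mrpl-55, a protein of the mitochondrial ribosome, it was 45.6 at rank 380 in replicate 2, against 4.78 at rank 8821 in replicate 1.

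Among the 20 strongest peaks, 4 had no counterpart in replicate 1 at any rank: smy-1, mpdu-1, 21ur-1872 and phm-2. The human relative of mpdu-1 is needed for the use of dolichol-linked mannose; its peak had a signal of 50.1 at rank 328 in replicate 2 and the nearest replicate 1 summit was 3744 bp away. The phm-2 peak had 47.3 at rank 365 in replicate 2, with the nearest replicate 1 summit 905 bp away. In the pooled list mpdu-1 had no summit within 200 bp and phm-2 had one at rank 27599. The peak beside 21ur-1872 had 48 at rank 354 in replicate 2, with a replicate 1 summit 342 bp away. The fifth strongest peak without a counterpart, at F19B10.1, had 39.3 at rank 480 in replicate 2 and lay near an optimal summit.

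The few narrow peaks of the set lay among its strongest. The common width in the replicate 2 list was 284 bp, and the 9 narrower peaks of the 937 were all among the 20 strongest, with widths from 71 to 270 bp. Among the 844 shared peaks, 281 (33.3%) were narrower than 284 bp.

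Most peaks of the set lay outside the 21U-RNA clusters. Of the 937, 328 (35%, interval 31.9 to 38.2) were on chromosome IV, against 351 of the 844 shared peaks (41.6%) and 630 of the 921 found only in replicate 1 (68.4%). Chromosome IV held 44.6% of the 1781 replicate 2 peaks just below the cut and 32.1% of the whole replicate 2 list. Windows of 100 kb with at least 50 annotated 21U-RNA genes, which cover 5.4 Mb of chromosome IV, held 221 (23.6%, interval 20.9 to 26.4). The same windows held 28.9% of the shared peaks, 62.4% of those found only in replicate 1 and 20.6% of the whole replicate 2 list. They held 37.3% of the 1781 replicate 2 peaks just below the cut. Outside the windows, chromosome IV held 8.85 peaks per Mb of the set, equal to the shared peaks and against 4.55 for those found only in replicate 1. The other 5 chromosomes together held 7.36 peaks per Mb of the set, 5.96 of the shared peaks and 3.52 of those found only in replicate 1.

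The windows fall into 2 regions, and the set was distributed unevenly between them. The larger region (positions 13600001 to 17300000) held 211 of the 221 peaks, or 57 per Mb, against 52.7 per Mb for the shared peaks and 149 for those found only in replicate 1. The smaller region, 17 windows (1.7 Mb) that lie between positions 4800001 and 6600000 with a gap, held the other 10, or 5.88 per Mb of window, against 28.8 per Mb for the shared peaks and 14.1 for those found only in replicate 1. As a share of the peaks in windows, the smaller region thus held 4.52% of the set, 20.1% of the shared peaks and 4.17% of those found only in replicate 1. Of all peaks, in windows or not, it held 1.07% of the set, 5.81% of the shared peaks and 2.61% of those found only in replicate 1. It held 2.92% of the 1781 replicate 2 peaks just below the cut and 4.72% of the whole replicate 2 list. The larger region held 22.5% of the set, 34.4% of the peaks just below the cut and 15.9% of the whole list. The part of signal in these differences was not tested.

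**Figure D2:**
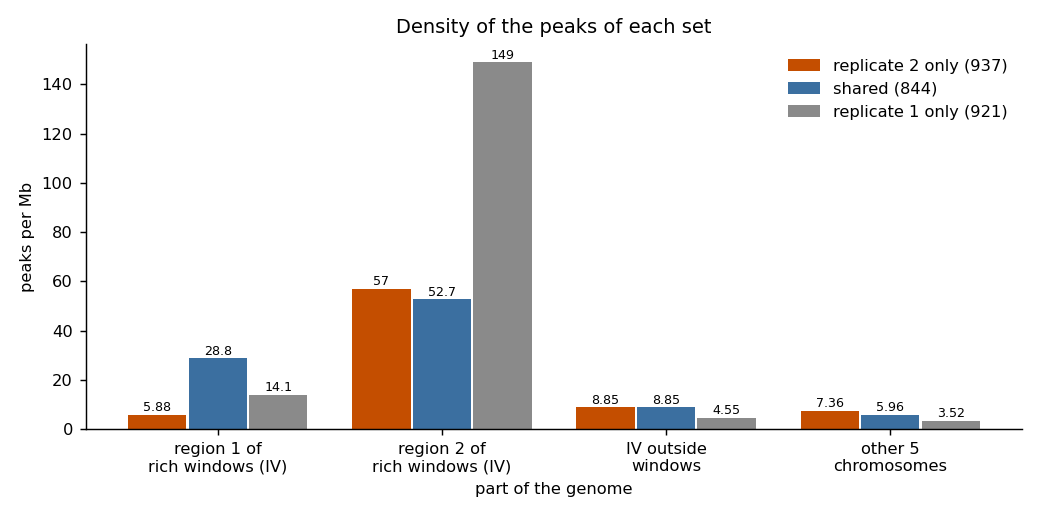
Peaks per Mb found only in replicate 2 (937), shared (844) and found only in replicate 1 (921) in the 2 regions of 21U-RNA-rich windows on chromosome IV (per Mb of window), in the rest of chromosome IV and on the other 5 chromosomes. In the larger region the values were 57, 52.7 and 149 peaks per Mb, and in the smaller region 5.88, 28.8 and 14.1.

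Each peak was assigned to the first class, in the order SL RNA, snRNA, tRNA, snoRNA, miRNA, rRNA, protein-coding, other non-coding RNA, 21U-RNA and pseudogene, that had an annotated 5' end within 300 bp of its summit. The 937 peaks fell into protein-coding (363), no 5' end nearby (262), 21U-RNA (186), tRNA (51), other non-coding RNA (44), small nucleolar RNA (snoRNA, 21), pseudogene (7), snRNA (2) and miRNA (1), with none at SL RNA or rRNA genes. Taken as 1 group, the small RNA classes had intervals that did not overlap between the set and the shared peaks. A snRNA, SL RNA, snoRNA or tRNA 5' end lay near 7.9% (interval 6.25 to 9.81) of the set. The share was 20% (17.4 to 22.9) for the shared peaks and 4.89% for those found only in replicate 1. It was 6.23% for the 1781 replicate 2 peaks just below the cut and 2.4% for the whole replicate 2 list. For tRNA alone the intervals overlapped, at 5.44% (4.08 to 7.09) of the set and 6.28% (4.74 to 8.13) of the shared peaks. The share assigned to 21U-RNA genes was 19.9% (17.3 to 22.6), against 11.5% (9.42 to 13.8) of the shared peaks and 55.7% (52.4 to 58.9) of those found only in replicate 1. It was 31.7% for the 1781 replicate 2 peaks just below the cut and 15% for the whole replicate 2 list. Protein-coding 5' ends, whatever the class assigned, lay near 39.8% (36.7 to 43), against 39.2% of the shared peaks, 14.9% of those found only in replicate 1 and 18% of the whole replicate 2 list. Intervals cover the counting of peaks only, and neighbouring peaks are not independent. The set and the shared peaks also differ in signal through the choice (medians of 25.3 and 40.4), and the part of signal in these differences was not tested.

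**Figure D3:**
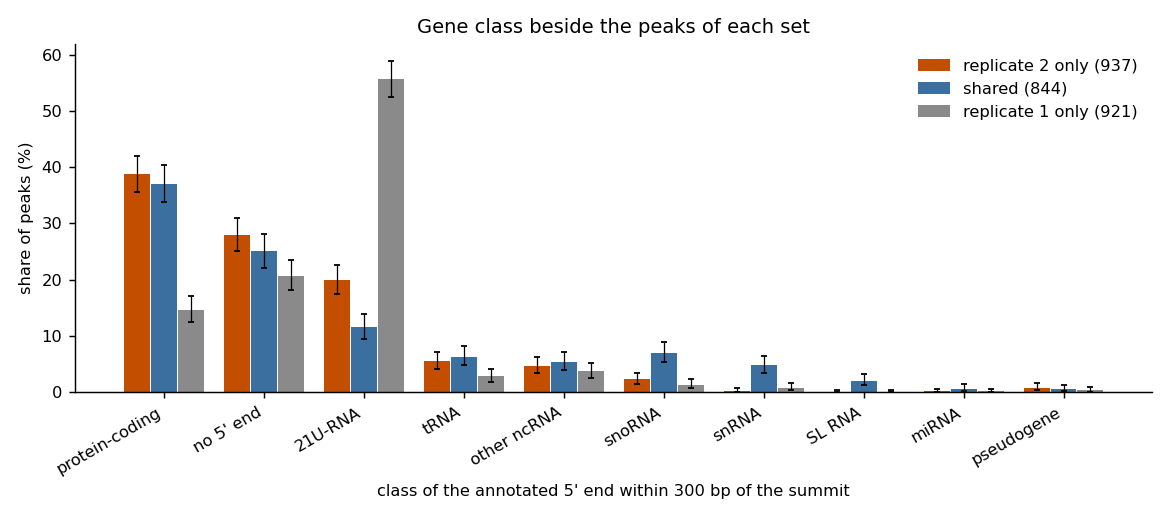
Share of peaks (%) by the class of the annotated 5' end within 300 bp of the summit, for peaks found only in replicate 2, shared peaks and peaks found only in replicate 1, with 95% Clopper-Pearson intervals; rRNA, with a single shared peak, is not drawn. Protein-coding genes took 38.7%, 37% and 14.7%, and 21U-RNA genes 19.9%, 11.5% and 55.7%.

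The classical SNAPc targets, SL RNA and snRNA genes, had a shared peak far more often than a peak of the set. Shared SL RNA peaks had a median signal of 237.8 and shared snRNA peaks one of 76.9, while the highest signal in the set was 66.3. The 2 sets differ in signal through the choice, so this contrast in part describes the choice. The part of signal in it was not tested. Of 30 SL RNA genes, 0 had a peak of the set within 300 bp of the 5' end, against 17 with a shared peak and 0 with a peak found only in replicate 1. Of 99 snRNA genes, 2 had a peak of the set, against 40 with a shared peak and 6 with one found only in replicate 1. That 2.02% was near the 2.24% of protein-coding genes with a peak of the set. At these numbers of genes, a lower share for either class was not resolved. Those 2 were smy-1 and T11F9.16, which had a signal of 23.6 at rank 1348 in replicate 2, against 5.63 at rank 7168 in replicate 1. Of 346 snoRNA genes, which guide chemical changes of other RNAs, 21 had a peak of the set, against 59 with a shared peak. The strongest snoRNA peaks were at Y38F2AR.14, with 41 at rank 448 in replicate 2 against 10.7 at rank 2673 in replicate 1, and at Y75B12B.12, with 38 at rank 511 in replicate 2 against 4.04 at rank 10776 in replicate 1. The only miRNA gene was mir-5595, with 32.7 at rank 654 in replicate 2 against 8 at rank 4372 in replicate 1.

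Transfer RNA genes had a peak of the set about as often as a shared peak. Of 612 tRNA genes, 58 had a peak of the set and 57 had a shared peak. No gene had both, but only 26 of the 937 peaks had a shared summit within 1000 bp, so few genes could. The places differed: 0 of the 58 lay in the 21U-RNA-rich windows, where 41 tRNA genes are annotated, against 35 of the 57 with a shared peak. Outside the windows, 58 of 571 tRNA genes had a peak of the set, against 22 with a shared peak and 26 with one found only in replicate 1. Chromosome X held 276 of the 612 tRNA genes and 26 of the 58, so the set stood near the share of all tRNA genes there. It held 5 of the 57 with a shared peak and 12 of the 29 with one found only in replicate 1. The 58 genes carried 19 amino acids in the RefSeq annotation, led by proline (7 of 42 genes) and glycine (6 of 55). Signal at the 51 tRNA peaks of the set ran from 20.8 to 58.6 with a median of 26.9, against 22.3 to 365.6 with a median of 94.3 for the shared tRNA peaks. The strongest lay between T23F1.t1 and T23F1.t2 on chromosome V, with 58.6 at rank 259 in replicate 2 against 10.3 at rank 2840 in replicate 1. The next, beside C10G8.t1, had 43.8 at rank 408 in replicate 2 against 13.3 at rank 1794 in replicate 1, and F52H2.t1 had 40.6 at rank 454 in replicate 2 against 7.54 at rank 4747 in replicate 1. The summits lay at a median of -2 bp from the nearest tRNA 5' end (quartiles -28.5 and 45 bp).

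Peaks of the 21U-RNA class numbered 186 and all lay in the rich windows. Each had 1 to 9 annotated 21U-RNA 5' ends within 300 bp, with a median of 3, so 691 of 15363 21U-RNA genes had a peak of the set nearby, against 394 with a shared peak and 1936 with one found only in replicate 1. Their signal ran from 20.7 to 48 with a median of 24.4, against 20.7 to 177.4 with a median of 26 for the shared peaks of this class. Behind 21ur-1872 the strongest were at 21ur-1630, with 41.6 at rank 442 in replicate 2 against 7.74 at rank 4570 in replicate 1, and at 21ur-5995, with 40.6 at rank 455 in replicate 2 against 13.1 at rank 1848 in replicate 1. Of the 186, 125 (67.2%, interval 60 to 73.9) had a counterpart in the full replicate 1 list, against 318 of the 363 protein-coding peaks (87.6%, 83.8 to 90.8). The share was 70.5% for other non-coding RNA, 79% with no 5' end nearby, 82.4% for tRNA and 95.2% for snoRNA. It was 68.7% for the 1781 replicate 2 peaks just below the cut. Median signal was 26.6 for the protein-coding peaks, and the part of signal in these shares was not tested. Of the 691 genes, 39 also had a peak found only in replicate 1 within 300 bp.

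Protein-coding promoters were the largest class. The 373 peaks with a protein-coding 5' end within 300 bp lay beside 448 genes, or 2.24% of 19973. Shared peaks lay beside 429 genes, and peaks found only in replicate 1 beside 160. No gene had both a peak of the set and a shared peak. Only 26 of the 937 peaks had a shared summit within 1000 bp, so few genes could have had both. The summit lay upstream of the nearest 5' end at 328 of the 373 (87.9%), against 299 of 331 shared peaks (90.3%). This share was 81% for peaks found only in replicate 1, 85.3% just below the cut and 65.2% for the whole replicate 2 list. The median position was -127 bp (quartiles -189 and -51), against -158 bp (-217 and -69.5) for the shared peaks. A pair of divergent genes, both with 5' ends within 300 bp, flanked 58 of the 373 summits (15.5%, interval 12 to 19.6), against 88 of 331 shared summits (26.6%, 21.9 to 31.7). At 1000 bp these shares were 37.3% and 46.5%. Within 300 bp, the divergent share was 13.1% for peaks found only in replicate 1 and 13.6% just below the cut. For the whole replicate 2 list the divergent share within 300 bp was 6.71%, so the set was below the shared peaks but above the whole list. A non-coding 5' end also lay within 300 bp of 48 of the 373 (12.9%), against 65 of 331 shared peaks (19.6%). This share was 24.1% for peaks found only in replicate 1, 13.4% just below the cut and 12.5% for the whole replicate 2 list.

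**Figure D4:**
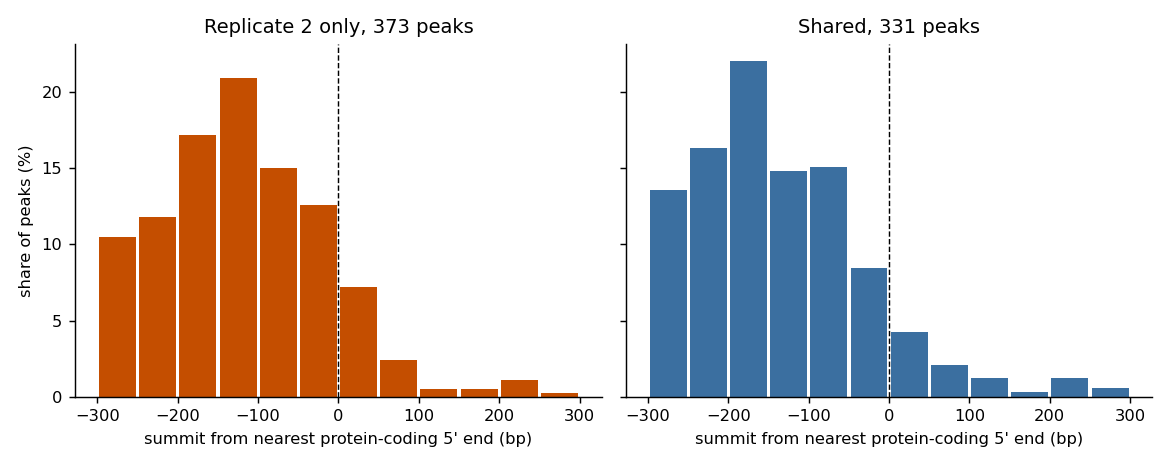
Position of the summit relative to the nearest protein-coding 5' end (bp, negative upstream), as a share (%) of the 373 peaks found only in replicate 2 and of the 331 shared peaks in bins of 50 bp. The fullest bin ran from -150 to -100 bp for the set (20.9%) and from -200 to -150 bp for the shared peaks (22.1%).

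Genes of protein synthesis and turnover appeared among the promoters. Of 70 mitochondrial ribosomal protein genes, 7 had a peak of the set (10%, against 2.24% of all protein-coding genes) and 5 had a shared peak; behind mrpl-55 the strongest were mrps-17, with 33.5 at rank 626 in replicate 2 against rank 8313 in replicate 1, and mrps-6, with 33.4 at rank 628 against rank 1876. Of 78 cytosolic ribosomal protein genes, 5 had a peak of the set (6.41%) and 24 had a shared peak (30.8%). The 5 were rps-23, rps-8, rpl-23A.2, rps-21 and rps-7, at replicate 2 ranks from 339 to 806. Of 33 proteasome genes, 4 had a peak of the set (12.1%) and 6 had a shared peak. These included rpt-2, an ATPase of the regulatory particle, with 41.8 at rank 438 in replicate 2 against rank 8081 in replicate 1, and rpn-11, the deubiquitinating subunit, with 39.3 at rank 483 against rank 6356. Of 72 translation factor and tRNA synthetase genes, 5 had a peak of the set and 8 a shared peak; ife-2, a cap-binding protein of the eIF4E family, had 40.4 at rank 462 in replicate 2 against rank 15552 in replicate 1, and eif-3.D had 37.4 at rank 524 against rank 4257.

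Splicing factors had 3 of 44 genes with a peak of the set (uaf-2, prp-9 and rnp-2) and 10 with a shared peak, and the respiratory chain had 3 of 31 (ucr-2.2, ucr-1 and nuo-1) and 5. Among 22 RNA polymerase subunit genes, 2 had a peak of the set and 0 had a shared peak: rpb-11 and rpc-1, the largest subunit of RNA polymerase III, which had 21.3 at rank 1672 in replicate 2 and no counterpart in replicate 1. Of 16 genes for SNAPc and 21U-RNA transcription factors, 1 had a peak of the set: snpc-3.4, of the SNAPc subunit family, with 25.2 at rank 1175 in replicate 2 against rank 5864 in replicate 1. Histone genes had 2 of 72, the H3.3 gene his-72 and the linker histone gene his-24. The germ granule and Argonaute list had 1 of 34, mut-15, a component of the RNA interference amplification machinery, with 44 at rank 405 in replicate 2 against rank 3796 in replicate 1. That summit lay nearer to the 5' end of fib-1, which encodes the nucleolar methyltransferase fibrillarin (-56 bp), than to that of mut-15 (-264 bp). Another gene's 5' end was also the nearer one for rps-21, mrps-6, mrpl-18, eif-3.D, ears-2, rpt-2, pas-2, prp-9, nuo-1, dpy-23 and col-71, so these counts do not assign a peak to 1 promoter. Symbols of the collagen list matched 194 genes, of which col-71 and dpy-23 had a peak of the set (1.03%); dpy-23 encodes a clathrin adaptor subunit and not a collagen. Nuclear hormone receptors had 2 of 269, homeobox genes 1 of 63, vacuolar ATPase genes 1 of 20 and heat shock genes 0 of 24. At these counts, a difference of a few genes between a list and all protein-coding genes was not resolved, and no list was tested.

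At the tagged gene itself, a shared peak at -212 bp from the 5' end of snpc-4 ranked 130 in replicate 2 and 271 in replicate 1. A peak of the set lay 4512 bp downstream of the snpc-4 5' end, beyond the gene's annotated 3' end, with 21.8 at rank 1583 in replicate 2 against 11.3 at rank 2431 in replicate 1. No peak of the set lay within 1 kb of unc-119.

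Peaks away from annotated 5' ends numbered 262 (28%, interval 25.1 to 31), against 25% of the shared peaks and 59.3% of the whole replicate 2 list. Their summits lay in intergenic sequence in 160 cases and in introns in 79, and coding exons held 4. The nearest 5' end of any gene was a median of 959 bp away, and 132 of the 262 had one within 1000 bp. The strongest, on chromosome X at position 17030788, had 47.3 at rank 363 in replicate 2 against 12.3 at rank 2086 in replicate 1, and its window held AGACGCAG. The next, on chromosome IV at 6336883, in the gap between windows of the smaller 21U-RNA region, had 42.7 at rank 422 in replicate 2 against 12.8 at rank 1953 in replicate 1.

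Sequence beneath the summits differed by class. Motifs were searched on both strands in windows of 201 bp centred on each summit and in equal windows 1000 bp to each side. AGACGCAG occurred in 98 of the 937 windows (10.5%, interval 8.57 to 12.6) and in 0.694% of the flanking windows, against 9.12% of shared windows, 4.78% of those found only in replicate 1, 9.1% of the 1781 replicate 2 peaks just below the cut and 3.77% of all 30000 replicate 2 windows. Among the 262 peaks with no 5' end nearby the share was 18.3% (13.8 to 23.5), with 0.954% in their flanks, against 14.2% (9.8 to 19.7) for shared peaks of the same class. AAACGCGC occurred in 45 of the 363 protein-coding windows (12.4%, 9.19 to 16.2) and in 0.413% of their flanks, against 11.9% for shared peaks and 5.93% for those found only in replicate 1. Over all 937 windows its share was 6.62%, against 2.47% of the 1781 peaks just below the cut and 1.22% of all replicate 2 windows. These motifs have ACGC in common but differ in the other letters, and 6 windows of the set held both. The nearest match lay a median of 21 bp from the summit for AGACGCAG and 17 bp for AAACGCGC. The base just before AGACGCAG was G in 90.8% of the 98 windows and the base after it was A in 88.8%. GCAAACAC, chosen after its values were seen, occurred in 13.2% of the protein-coding windows and in 1.24% of their flanks. It occurred in 9.62% of the shared protein-coding windows and in 10.4% of those found only in replicate 1. Over all 937 windows its share was 6.4%, against 1.66% of all replicate 2 windows. The other motifs were listed beforehand, but with earlier results of these data known. Their shares against the flanks are therefore descriptions only.

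Motifs of the small RNA classes were found in the matching windows. CTGTTTCA, the core upstream of 21U-RNA genes, occurred in 76 of 186 windows of the 21U-RNA class (40.9%, interval 33.7 to 48.3) and in 21% of their flanks, which lie in the same gene clusters, against 46.4% for the shared peaks and 40.9% for those found only in replicate 1. Over all replicate 2 windows it occurred in 6.69%. GGTTCGA, the core of the tRNA B box, occurred in 26 of 51 tRNA windows (51%), against 58.5% for the shared peaks and 2.33% of all replicate 2 windows. CGGAACCC occurred in 10 of the 937 windows (1.07%, 0.513 to 1.95), against 72 of the 844 shared windows (8.53%, 6.73 to 10.6), 2.61% of those found only in replicate 1, 1.24% of the 1781 replicate 2 peaks just below the cut and 1.03% of all replicate 2 windows. The E-box CACGTG, which reads the same on both strands, occurred in 6.19% of the set, 3.44% of shared windows, 4.38% of the 1781 peaks just below the cut and 4.38% of all replicate 2 windows. GAGAGAGA occurred in 7.04% of the set, 4.5% of shared windows, 7.47% of the 1781 replicate 2 peaks just below the cut and 3.78% of all replicate 2 windows. TTTTTTTT (16.8%) and TGATAA (15.3%) were below the 23.4% and 20.5% of the flanks. Median GC content was 39.3% for the set and 42.8% for the shared peaks. A match is a description of letters and not evidence of binding.

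The set was not uniform along its own signal. Among its 235 strongest peaks (median signal 32.6), 57.4% lay near a protein-coding 5' end and 13.2% in the 21U-RNA-rich windows. Among the 234 weakest (median 21.5) these shares were 30.8% and 31.6%. The groups between were not in order, with 34.2% and then 36.8% near a protein-coding 5' end and 27.4% and then 22.2% in the windows. AAACGCGC occurred in 11.1%, 6.84%, 5.56% and 2.99% of the 4 groups, strongest first. AGACGCAG stood at 7.23% and 8.97% in these groups, with 14.1% and 11.5% in the groups between. By place in the replicate 1 list, 14.5% of the peaks with a counterpart at ranks 1782 to 2500 lay in the windows, against 38.2% of the 186 with none. The difference in place moved with signal: median signal was 27.3 for those 159 peaks and 24.1 for the 186, and the part of signal in the difference was not tested.

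**Figure D5:**
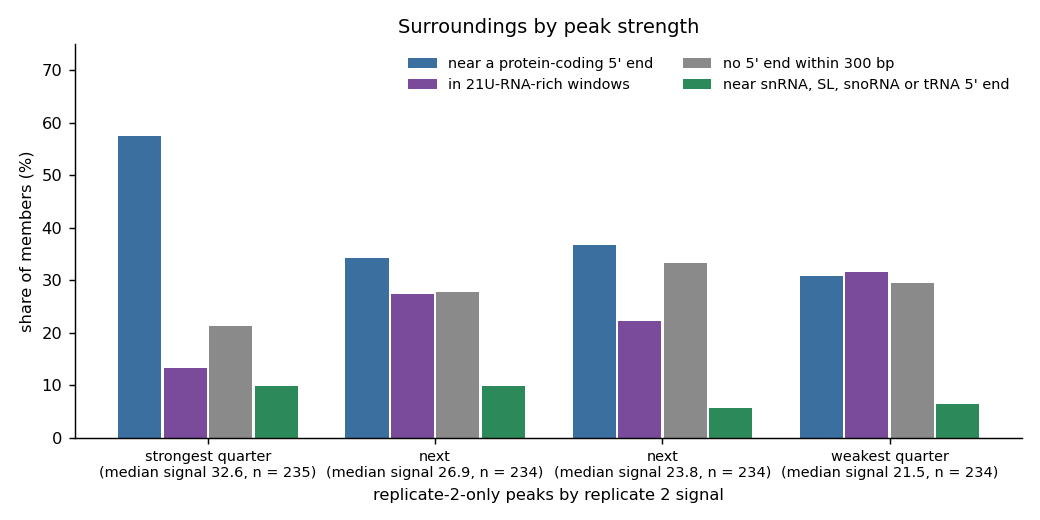
Share (%) of the 937 peaks near a protein-coding 5' end, in 21U-RNA-rich windows, with no 5' end within 300 bp, and near a snRNA, SL RNA, snoRNA or tRNA 5' end, in 4 groups of 234 or 235 peaks by replicate 2 signal, strongest at the left. Protein-coding promoters made up 57.4% of the strongest group and 30.8% of the weakest.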

How the data were processed

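ChIP-seq peak lists of 2 biological replicates were analysed. The deposited lists hold, per the file layout, for each peak the authors' signal value, its q value as -log10 and its summit; the relaxed lists held 30000 peaks in replicate 2 and 20730 in replicate 1, and the optimal list, left by the authors' filter on the irreproducible discovery rate, held 1781. The deposited -log10 q value was tied at its highest value for 2669 peaks of replicate 2 and 4763 of replicate 1, so lists were ranked by the authors' signal. Signal is not on one scale between lists. No aligner, caller or filter threshold is named here, being not given in the sources used here; control reads were not analysed here, and read depth is unknown, so no interval based on reads is given.

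Summits were matched within 200 bp, and genes of Ensembl release 115 (WBcel235, equal to ce11) were assigned by 5' ends within 300 bp. Symbols came from RefSeq for 43504 of 46890 genes with the same span. Shares carry 95% Clopper-Pearson intervals, which cover counting only. No test was run, because 1 group of 2 replicates allows none between samples. The members, gene lists and motifs were chosen with earlier results of these data known. Genes were named for the 20 strongest members, up to 3 of each class and list, the strongest of each chromosome, the 5 nearest below the replicate 1 cut and the 5 strongest without a counterpart; those at the thresholds and in the printed sequences, the remaining ribosomal protein genes, and snpc-4 and unc-119 were added. Python 3.11.15, numpy 2.4.6, pandas 2.3.3, scipy 1.17.1 and matplotlib 3.10.9 were used, and matching was tested on simulated peaks. Alternatives changed the matching, ranking, list length, gene distance, windows and build.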

Additional observations from a re-analysis of the deposited data

How the results depend on the processing

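Of 69 values recomputed for 8 results under 13 settings, 44 stayed within 1.5 times the count or inside the reported interval, and 25 moved. With lists cut to 1000 peaks there were 474 members, of which 29.7% lay on chromosome IV, 16.5% in the 21U-RNA-rich windows, 50.6% near a protein-coding 5' end, 10.1% near a snRNA, SL RNA, snoRNA or tRNA 5' end and 25.1% near no 5' end; 89.5% had a summit in the full replicate 1 list and 90.1% in the optimal list. With 2500 peaks, 39% lay on chromosome IV, 29.6% in the windows (29.2% of the shared peaks) and 33% near a protein-coding 5' end, 71.7% had a replicate 1 summit and 33.7% an optimal one. The share with a replicate 1 summit was 65.5% at 100 bp, 91% at 500 bp, 87.4% by overlap of intervals and 82.9% with replicate 1 cut to the same share of its list, under which 63.2% had an optimal summit. A distance of 150, 500 or 1000 bp from a 5' end gave 23.4%, 47.7% and 58.9% near a protein-coding gene and 45.5%, 20.6% and 13.9% near none, and 1000 bp gave 9.93% near the small RNA classes. The cause of the shifts with list length was not tested. The share near small RNA classes was below that of the shared peaks under every list setting run, and the windows share was below it under all but 2500 peaks. Ranking by -log10 q with ties ranked by signal could not differ from the reported ranking, because more than 1781 peaks of each list are tied at the highest value, so its 8 values among the 44 show nothing about stability. The ce10 lists gave 937 peaks. The protein-coding share was above that of the shared peaks at 1000 peaks (50.6% and 37.8%) and below it at 100 bp (38.8% and 40.5%) and at 2500 peaks (33% and 37%). Leaving out a replicate was not possible, since the choice needs both. No paired analysis was possible because there is 1 group. Read depth is unknown, so a peak absent from the replicate 1 list is not shown to be unbound there.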
